A study of Mus musculus with 6 samples.

Results

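A group of 10 genes, most of them known to mark or specify arteries and veins, was followed in choroid endothelial cells (ECs) of young and adult mice: Efnb2, Ephb4, Nr2f2, Nr2f1, Sox17, Gja4, Gja5, Gja1, Bmx and Aplp2. They were picked by gene symbol from the 22026 symbols listed for every isolation, and all 10 were found and had enough expression to be tested. The choroid is the vascular bed behind the retina, and its ECs were taken from 129/B6 mice at postnatal day 5 (P5, 3 isolations) and at P30 (3 isolations). The labels name no engineered allele and no treatment beyond the labelling antibody, and the groups are labelled by age. The antibody dose and the way of anaesthesia also differed between the ages, as the study's methods give them, so their part and that of age cannot be told apart; the P30 mice were male and female. An antibody to VE-Cadherin, an EC junction protein, was injected into the circulation and VE-Cadherin+ cells were sorted from the dissected choroid and the attached retinal pigment epithelium (RPE). Each isolation pooled 7 animals, so a value is a mean over animals and over arteries, capillaries and veins, and no vessel type was separated. The measurement was bulk RNA sequencing, given as FPKM, a count of sequenced fragments scaled to transcript length and to the size of the library. Read counts were not analysed here, so the depth behind each value is unknown.

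Arteries and veins differ in their ECs before and after blood flow begins. The ligand ephrin-B2 (Efnb2) sits on arterial ECs and its receptor EphB4 (Ephb4) on venous ECs, and contact between the pair helps to keep the vessel types apart. COUP-TFII (Nr2f2) is the nuclear receptor that holds venous fate, and COUP-TFI (Nr2f1) is its close paralogue. Sox17 is a SoxF transcription factor needed for arterial fate, downstream of which Notch signalling acts. Connexin 37 (Gja4), connexin 40 (Gja5) and connexin 43 (Gja1) build the gap junctions that couple vascular cells, the first and second being used as arterial EC markers. Bmx, a Tec-family tyrosine kinase, is enriched in arterial ECs. Aplp2, an amyloid precursor-like protein, is expressed in most tissues and is not a textbook marker of either vessel type, so it was read apart from the rest.

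Of the 10 genes, Sox17 and Bmx rose from P5 to P30 and none fell. A gene was called when limma's adjusted p, corrected over all 12481 genes tested, was under 0.01 and mean FPKM + 1 differed at least 2-fold. By the same limits, the background over all genes tested was 5.89% called higher at P30 and 5.82% called higher at P5. The 2 called genes are both arterial by textbook knowledge, while the ligand and receptor pair Efnb2 and Ephb4, the venous regulator Nr2f2 and the 3 connexins did not pass. With an adjusted p under 0.05 and no fold limit, Nr2f1 joined as higher at P30, giving 3 genes higher and 0 lower, where the background was 16.1% and 22.4% of all genes tested. The count of 3 higher depended on the setting. By limma, Gja4 joined with the isolation number as a block (adjusted p = 0.0427). Aplp2 joined with a minimum FPKM of 10 (0.0469) and without P30 isolation 3 (0.0229). Nr2f1 dropped out without P5 isolation 2 or 3 (limma adjusted p = 0.0583 and 0.0688). The count of 0 lower depended on the scaling. Efnb2 was lower at P30 by limma with quantile normalization, equal FPKM sums and scaling to endothelial genes (adjusted p = 0.0348, 0.0236 and 0.0280), Ephb4 with scaling to endothelial genes (0.0164) and Gja1 with quantile normalization (0.0429), each by less than 2-fold. Equal FPKM sums put the median log2 fold change of all genes at −0.27, beside −0.33 for Efnb2. Scaling to endothelial genes put it at −0.40, beside −0.46 for Efnb2 and −0.44 for Ephb4. With quantile normalization it was −0.08, beside −0.31 for Efnb2 and −0.41 for Gja1. The median log2 fold change of the 10 genes was 0.17, beside −0.10 over all genes tested. In bulk samples a change in the share of arterial or venous cells and a change in RNA per cell cannot be told apart.

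**Figure D1:**
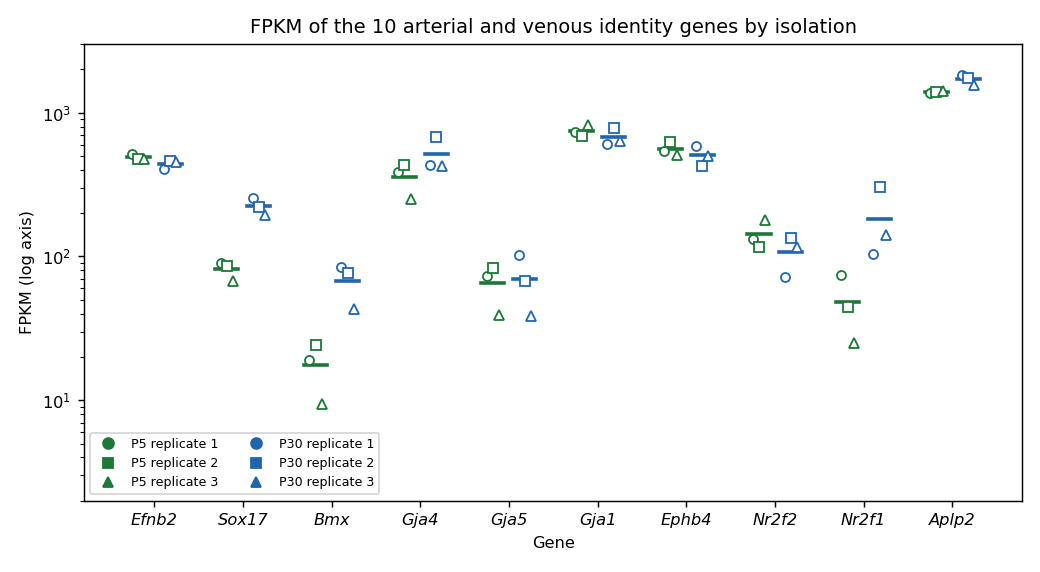
FPKM of each of the 10 genes (log axis) in every isolation, with P5 and P30 side by side, 1 point per isolation and a bar at the mean of 3. The P30 points of Sox17 lie between 194 and 254 and those of P5 between 67.5 and 90.2, while the points of Ephb4, Gja1 and Gja5 overlap between the ages.

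The stretch before the transcription start is shown for the 2 genes whose windows held the core letters bound by SOX factors, since Sox17 is itself among the genes followed. RefSeq promoter entries matched 9 of the 10 genes, all but Sox17, and gave 10 windows because Nr2f1 has 2 starts. In each, the 250 bases before the start were searched on both strands for ACAAT (SOX core), AGGTCA (nuclear receptor half-site) and TGGGAA (RBPJ, the Notch effector). Capitals mark the matches and the sequences run 5′ to 3′ on the gene's strand, which is the minus strand for both. Coordinates are on mm9, where each window had a single exact match on its chromosome.
Bmx, chrX:160696126-160696375: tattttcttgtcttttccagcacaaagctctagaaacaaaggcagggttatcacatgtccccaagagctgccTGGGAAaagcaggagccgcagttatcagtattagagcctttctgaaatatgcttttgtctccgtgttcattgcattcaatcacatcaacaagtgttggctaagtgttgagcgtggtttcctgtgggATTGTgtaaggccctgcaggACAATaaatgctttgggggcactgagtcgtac
Gja4, chr4:126991284-126991533: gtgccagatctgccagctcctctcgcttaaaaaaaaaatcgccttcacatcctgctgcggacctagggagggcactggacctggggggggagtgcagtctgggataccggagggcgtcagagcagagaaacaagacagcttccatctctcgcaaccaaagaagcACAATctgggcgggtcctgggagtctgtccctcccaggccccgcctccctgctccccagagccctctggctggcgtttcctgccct
The Bmx window held 2 SOX matches, at −52 to −48 (as ATTGT, the reverse complement) and at −32 to −28 counted from the start, and 1 RBPJ match at −178 to −173. The Gja4 window held 1 SOX match at −86 to −82. None of the 3 motifs was found in the windows of the other 7 genes, and AGGTCA was in none of the 10. Short motifs are common: of 32851 RefSeq promoter windows of this length, 27.7% held ACAAT, 6.59% held it 2 or more times, 14.0% held AGGTCA and 21.6% held TGGGAA. The Bmx window had 45.6% GC and the Gja4 window 61.2%, beside a median of 52.4% over all windows. A match describes letters in a window and was not tested for binding.

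Sox17 (chromosome 1, 4481009 to 4486494, minus strand, mm9) rose 2.75-fold. Its FPKM was 90.2, 86.0 and 67.5 in the P5 isolations and 254, 221 and 194 in the P30 isolations. The lowest P30 isolation lay far above the highest P5 isolation. The means were 81.2 ± 12.1 and 223 ± 30.2 (SD, n = 3 each), with a log2 fold change of 1.45 (SE 0.15, 95% interval 1.09 to 1.80, limma adjusted p = 0.000611). Sox17 was called under all 18 alternative settings, with limma adjusted p between 0.000466 and 0.00445. These include an adjusted p under 0.05 with no fold limit, which any gene called in the main fit passes. In both ages isolation 1 was highest and isolation 3 lowest, an order shared with the summed FPKM of 8 RPE genes (178, 93.1 and 91.3 at P5 and 3939, 2228 and 554 at P30). At P30 that sum ranged 7.11-fold between isolations while Sox17 ranged 1.31-fold, and the part of RPE cells in the Sox17 difference was not tested.

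The other SoxF genes took other courses. Sox7 fell from 563 ± 50.1 to 242 ± 46.1 FPKM (n = 3 each), with a log2 fold change of −1.23 (SE 0.15, limma adjusted p = 0.00118) and with all P5 isolations above all P30 isolations. Sox18 was 728 ± 72.2 FPKM at P5 and 789 ± 210 at P30 (n = 3 each), and its log2 fold change of 0.08 (95% interval −0.40 to 0.56) did not pass. Per transcript length Sox17 was thus the lowest of the 3 at P5, and at P30 its 194 to 254 FPKM overlapped the 195 to 287 FPKM of Sox7.

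Bmx (chromosome X, 160630774 to 160696125, minus strand, mm9) rose 3.87-fold from the lowest level of the 10 genes. Its FPKM was 19.2, 24.1 and 9.38 at P5 and 84.3, 76.2 and 43.1 at P30. The lowest P30 isolation still lay above the highest P5 isolation, but isolation 3 was the lowest at each age. The means were 17.6 ± 7.49 and 67.9 ± 21.8 (SD, n = 3 each), with a log2 fold change of 1.93 (SE 0.38, 95% interval 1.05 to 2.81, limma adjusted p = 0.00720). This call was close to its limit. It was lost when P5 isolation 1, 2 or 3 or P30 isolation 1 or 2 was left out (limma adjusted p = 0.0214, 0.0135, 0.0208, 0.0208 and 0.0240), without a minimum FPKM (0.0112) and without the intensity trend in the variance (0.0160), while the log2 fold change under these 7 settings was 1.56 to 2.19. Of its relatives, Tec was 30.2 ± 7.13 FPKM at P5 and 23.3 ± 9.41 at P30 (n = 3 each, limma adjusted p = 0.338). Btk, a kinase of B cells and myeloid cells, was listed at 7.56, 7.22 and 7.99 FPKM at P5 and at 0, 1.72 and 1.98 at P30 (limma adjusted p = 0.0200), and Txk was listed at 0 in all 6 isolations.

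**Figure D2:**
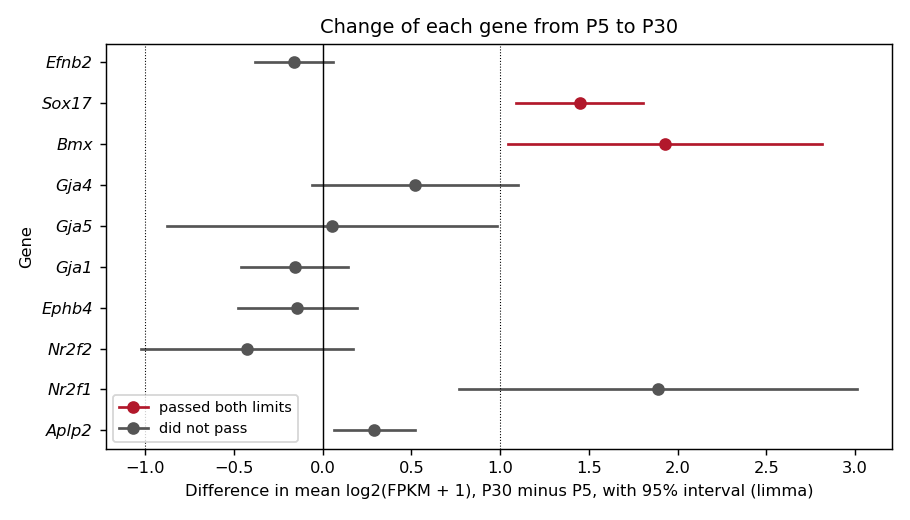
Log2 fold change from P5 to P30 of the 10 genes with its 95% interval from limma, with the line at 0 marking no difference and dotted lines a 2-fold difference. Sox17 (1.45) and Bmx (1.93) are the genes that passed the limits, Nr2f1 has a like size with a wider interval (0.77 to 3.01), and the intervals of Efnb2, Ephb4, Nr2f2, Gja4, Gja5 and Gja1 include 0.

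The ephrin ligand and its receptor were both highly expressed and neither passed the limits. Efnb2 (chromosome 8, 8617434 to 8661239, minus strand, mm9) was 515, 474 and 480 FPKM at P5 and 405, 461 and 450 at P30. All 3 P5 isolations lay above all 3 P30 isolations, as they did for 33.0% of the genes tested, but the gap between 474 and 461 was small. The log2 fold change was −0.16 (SE 0.09, limma adjusted p = 0.214), and its 95% interval allowed a ratio of P30 to P5 from 0.769 to 1.04. Ephb4 (chromosome 5, 137791337 to 137819897, plus strand, mm9, overlapping Zan on the other strand) was 537, 622 and 505 FPKM at P5 and 591, 425 and 499 at P30, and the ages overlapped. Its log2 fold change was −0.14 (SE 0.14, 95% interval −0.48 to 0.19, limma adjusted p = 0.453).

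Set against each other within an isolation, which removes any scaling between isolations, the arterial ligand and the venous receptor were close to even. The FPKM ratio of Efnb2 to Ephb4 was 0.959, 0.762 and 0.949 at P5 and 0.685, 1.08 and 0.903 at P30. The mean log2 ratio was −0.18 ± 0.19 at P5 and −0.19 ± 0.33 at P30 (SD, n = 3 each; exact two-sided permutation p = 1.0, where 3 against 3 cannot go below 0.1).

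Among 20 other Eph and ephrin genes, 11 were expressed highly enough to be tested, and 1 rose and 2 fell, where 5.89% and 5.82% of all genes tested did. Counts this small do not set the list apart from that background, and its median log2 fold change was −0.27 beside −0.10 over all genes. Epha2 rose from 184 ± 15.9 to 441 ± 21.3 FPKM (log2 fold change 1.25, SE 0.10, limma adjusted p = 0.000257, n = 3 each). Ephb1 fell from 10.7 ± 0.561 to 1.29 ± 0.598 FPKM (limma adjusted p = 0.00311), and Efna4 fell from 19.0 ± 2.87 to 7.35 ± 1.74 FPKM (limma adjusted p = 0.00804). The number that fell was 0 when any P5 isolation was left out and 1 without P30 isolation 1 or 2. Over all genes tested, 726 fell, and 427, 291 and 297 did without P5 isolation 1, 2 and 3. That number was 727 and 754 without P30 isolation 1 and 2. Efna1, the most abundant of these ligands, was 478 ± 11.9 FPKM at P5 and 403 ± 88.1 at P30 (limma adjusted p = 0.200), and Efnb1, the sister ligand of Efnb2, was 253 ± 29.6 and 361 ± 19.8 FPKM (limma adjusted p = 0.0114).

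None of the 3 vascular connexins passed the limits. Gja4 (chromosome 4, 126988665 to 126991283, minus strand, mm9) was 388, 435 and 251 FPKM at P5 and 435, 672 and 429 at P30. The log2 fold change was 0.52 (SE 0.25, 95% interval −0.06 to 1.10, limma adjusted p = 0.135), and P5 isolation 2 lay just above P30 isolations 1 and 3. Gja5 (chromosome 3, 96708616 to 96881339, plus strand, mm9, overlapping Gpr89 on the other strand) was 73.4, 83.3 and 39.0 FPKM at P5 and 103, 67.0 and 38.5 at P30. Its log2 fold change was 0.05 (SE 0.40, limma adjusted p = 0.926), and its sign turned to −0.11 with equal FPKM sums and to −0.24 with scaling to endothelial genes. The 95% interval of −0.88 to 0.98 does not separate no change from a nearly 2-fold change in either direction. Gja1 (chromosome 10, 56097106 to 56110225, plus strand, mm9) was 731, 687 and 823 FPKM at P5 and 602, 778 and 635 at P30, with a log2 fold change of −0.16 (SE 0.13, 95% interval −0.46 to 0.14, limma adjusted p = 0.354).

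Within isolations Gja1 exceeded Gja4 at both ages. The FPKM ratio of Gja1 to Gja4 was 1.88, 1.58 and 3.28 at P5 and 1.38, 1.16 and 1.48 at P30, so every P5 isolation lay above every P30 isolation. The difference in log2 ratio was −0.68 (exact two-sided permutation p = 0.1, the smallest possible here, and 0.167 after Benjamini-Hochberg adjustment over 5 ratios). Gja5 was the minor arterial connexin, at 0.189, 0.191 and 0.155 of Gja4 at P5 and 0.236, 0.0997 and 0.0899 at P30, and these ratios overlapped between the ages (exact permutation p = 0.4, adjusted 0.5). Of 17 other connexin genes, 10 were listed at 0 in all 6 isolations and only Gjc1 and Gjb2 had enough expression to be tested. Gjc1 (connexin 45) was 180 ± 7.39 FPKM at P5 and 208 ± 43.3 at P30 (limma adjusted p = 0.352), and Gjb2 was 1.84 ± 1.75 and 6.89 ± 6.36 FPKM (limma adjusted p = 0.195, n = 3 each).

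The COUP-TF paralogues took opposite signs, without either passing the limits. Nr2f2 (chromosome 7, 77496832 to 77511621, minus strand, mm9) was 132, 117 and 178 FPKM at P5 and 71.7, 134 and 117 at P30. The ages overlapped, and the log2 fold change was −0.42 (SE 0.25, 95% interval −1.02 to 0.17, limma adjusted p = 0.220). Nr2f1 (chromosome 13, 78328234 to 78339018, minus strand, mm9) was 74.5, 44.4 and 25.1 FPKM at P5 and 103, 305 and 142 at P30. All P30 isolations lay above all P5 isolations, but the spread within each age was about 3-fold. The means were 48.0 ± 24.9 and 183 ± 107 (SD, n = 3 each), 3.82-fold apart, with a log2 fold change of 1.89 (SE 0.48, 95% interval 0.77 to 3.01, limma adjusted p = 0.0189). Without P5 isolation 2 or 3 the limma adjusted p was 0.0583 and 0.0688. The annotation places the antisense gene A830082K12Rik and Gm8327 over Nr2f1 on the plus strand, and no source used here states that counting kept the strand, so reads of the overlapping genes cannot be told apart.

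In terms of the pair, Nr2f2 was the more abundant paralogue in each P5 isolation and Nr2f1 in each P30 isolation. The FPKM ratio of Nr2f2 to Nr2f1 was 1.77, 2.64 and 7.09 at P5 and 0.694, 0.441 and 0.826 at P30. The log2 ratio differed by −2.31 (exact two-sided permutation p = 0.1, the smallest possible, adjusted 0.167). A further paralogue, Nr2f6, was 121 ± 13.7 FPKM at P5 and 108 ± 23.4 at P30 (n = 3 each, limma adjusted p = 0.439). The ratio of arterial Sox17 to venous Nr2f2 was 0.684, 0.734 and 0.379 at P5 and 3.54, 1.65 and 1.65 at P30. Sox17 thus lay below Nr2f2 in all P5 isolations and above it in all P30 isolations, a difference of 1.87 in log2 ratio (exact permutation p = 0.1, adjusted 0.167).

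**Figure D3:**
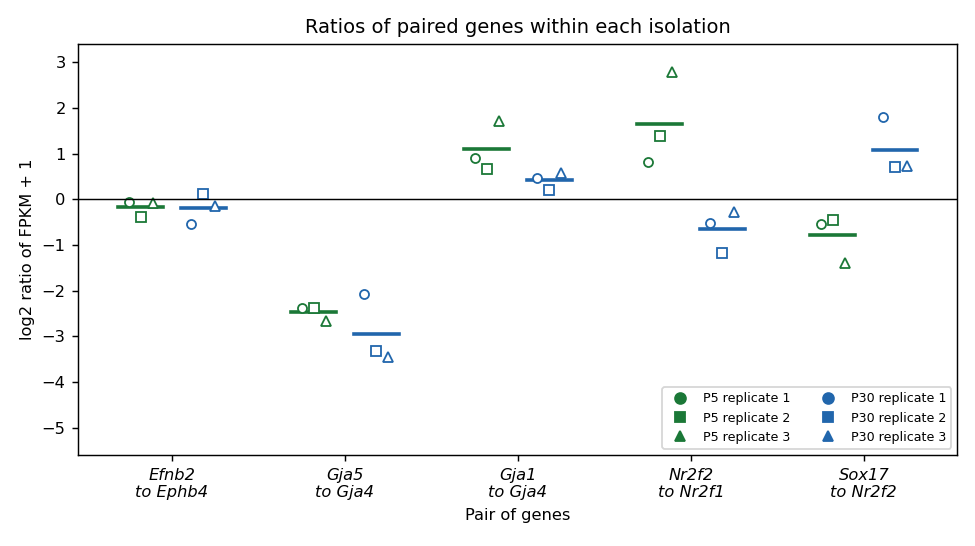
Log2 ratio of FPKM + 1 within each isolation for 5 pairs of the genes, P5 and P30 side by side, 1 point per isolation and a bar at the mean of 3. Nr2f2 to Nr2f1 (means 1.66 and −0.66) and Sox17 to Nr2f2 (means −0.79 and 1.08) cross 0 between the ages, while Efnb2 to Ephb4 stays close to 0 at both.

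Markers of pericytes, the mural cells that wrap capillaries, ranked the isolations as Nr2f1 did. The summed FPKM of 7 pericyte genes (Rgs5, Pdgfrb, Cspg4, Notch3, Abcc9, Kcnj8 and Des) was 1748, 919 and 476 at P5 and 1880, 6375 and 3894 at P30, the same order of isolations as Nr2f1 at each age. Rgs5, the most abundant of them, went from 580 ± 424 to 2675 ± 1399 FPKM (n = 3 each). It made up much of the sum, with 1042, 491 and 208 FPKM at P5 and 1283, 4082 and 2660 at P30. Abcc9 did not rise (174 ± 22.1 and 173 ± 83.6 FPKM), and Abcc9, Cspg4 and Notch3 overlapped between the ages. None of the 7 was at 0 in any isolation, 4 had all P30 isolations above all P5 isolations, and 0 passed both limits by limma (4 at an adjusted p under 0.05). All P30 isolations lay above all P5 isolations for 22.0% of the genes tested. Over all genes tested, 5.89% were called higher at P30, and 16.1% were higher at an adjusted p under 0.05. Expressed as a percent of the pericyte sum, a measure chosen after its values were seen, Nr2f1 was 4.26, 4.83 and 5.27 at P5 and 5.50, 4.78 and 3.64 at P30, so the ages overlapped. Across the 6 isolations this percent ranged 1.51-fold, where the Nr2f1 FPKM ranged 12.2-fold, and for the other 9 genes the same percent ranged 4.08-fold (Sox17) to 17.7-fold (Nr2f2). The part of pericytes in the Nr2f1 difference was not tested.

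**Figure D4:**
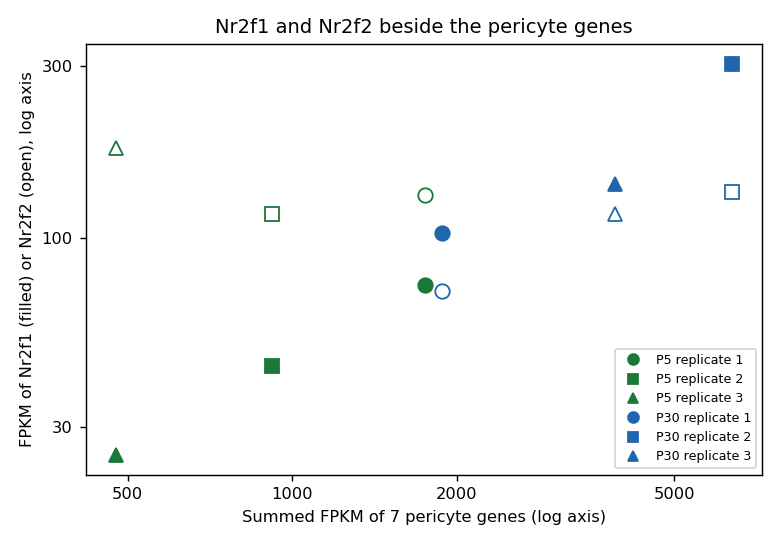
FPKM of Nr2f1 (filled) and Nr2f2 (open) (vertical, log axis) against the summed FPKM of 7 pericyte genes (horizontal, log axis), 1 point per isolation (by shape), with P5 in green and P30 in blue. Nr2f1 climbs with the sum from 25.1 FPKM at a sum of 476 to 305 at a sum of 6375, while Nr2f2 stays between 71.7 and 178; the points share their libraries and no test was made.

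Aplp2 (chromosome 9, 30957142 to 31019400, minus strand, mm9) was the most abundant of the 10 genes at both ages. Its FPKM was 1372, 1401 and 1413 at P5 and 1820, 1748 and 1564 at P30, and all P30 isolations lay above all P5 isolations. The log2 fold change of 0.29 (SE 0.10, 95% interval 0.06 to 0.52, limma adjusted p = 0.0503) was well short of 2-fold, and its sign turned to −0.042 with quantile normalization and to −0.0086 with scaling to endothelial genes. Its paralogues differed by less than 2-fold. App went from 2350 ± 94.7 to 3625 ± 114 FPKM (1.54-fold, limma adjusted p = 0.00293), and Aplp1 from 30.9 ± 7.14 to 60.5 ± 0.287 FPKM (1.93-fold in FPKM + 1, limma adjusted p = 0.00682, n = 3 each).

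Across the 10 genes, all P30 isolations exceeded all P5 isolations for 4 (Sox17, Bmx, Nr2f1 and Aplp2), beside 22.0% of the genes tested. The reverse held for Efnb2 alone, beside 33.0%, and 5 genes overlapped. The order of levels per transcript length at P5 was Aplp2, Gja1, Ephb4, Efnb2, Gja4, Nr2f2, Sox17, Gja5, Nr2f1 and Bmx. Ephb4 and Efnb2, Sox17 and Gja5, and Gja5 and Nr2f1 overlapped between isolations, and the other neighbours did not. At P30 the order was Aplp2, Gja1, Gja4, Ephb4, Efnb2, Sox17, Nr2f1, Nr2f2, Gja5 and Bmx. There the neighbours were apart only between Aplp2 and Gja1 and between Efnb2 and Sox17. Among all genes tested, Sox17 went from the 64.0th percentile of mean FPKM at P5 to the 88.3rd at P30, Nr2f1 from the 46.7th to the 84.7th and Bmx from the 22.2nd to the 58.9th, while Efnb2 and Ephb4 stayed above the 95th.

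Other arterial genes were examined from a list of 22 genes, all of which could be tested. Of these, 9 rose and 2 fell at the same limits, beside 5.89% and 5.82% of all genes tested. At an adjusted p under 0.05 the counts were 14 and 3, beside 16.1% and 22.4%, and the median log2 fold change was 0.81 beside −0.10 over all genes. The list was chosen with earlier results of these data known, so its counts beside the background are a description. The 6 largest changes were increases. Mgp, a secreted inhibitor of BMP signalling and calcification, went from 1811, 1244 and 802 FPKM at P5 to 12711, 13592 and 6218 at P30 (log2 fold change 3.07, SE 0.38, limma adjusted p = 0.00112). The chemokine Cxcl12 went from 279 ± 56.9 to 1129 ± 304 FPKM (limma adjusted p = 0.000748), and Edn1, the vasoconstrictor endothelin-1, from 66.1 ± 22.4 to 345 ± 114 FPKM (limma adjusted p = 0.00194). Hey2, a Notch target, went from 14.3 ± 3.51 to 42.1 ± 5.47 FPKM (limma adjusted p = 0.00225, n = 3 each). Cytl1 was 20.2, 14.2 and 2.23 FPKM at P5 and 335, 185 and 103 at P30, and Gkn3 was listed at 0, 5.28 and 3.18 at P5 and at 141, 109 and 73.8 at P30. Hes1, another Notch target, rose from 712 ± 66.5 to 1449 ± 270 FPKM (limma adjusted p = 0.00251), while Nrp1, a co-receptor for VEGF and semaphorins, was 1.56-fold higher, short of the 2-fold limit (1260 ± 31.8 and 1964 ± 248 FPKM, limma adjusted p = 0.00565). The 2 that fell were Sox7 and the netrin receptor Unc5b (337 ± 40.1 to 139 ± 14.7 FPKM, limma adjusted p = 0.000496), the latter named after its value was seen because the count is small. Leaving out P5 isolation 2 lowered the number that rose from 9 to 5, and over all genes tested from 735 to 404.

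The venous genes, also listed with earlier results of these data known, were read in the same way. Of 15 other venous genes 14 could be tested (all but Slc38a5), and 5 rose and 1 fell, beside 5.89% and 5.82% of all genes tested. At an adjusted p under 0.05 the counts were 10 and 1, beside 16.1% and 22.4%, and the median log2 fold change was 1.33 beside −0.10 over all genes. The adhesion molecules Vcam1 and Icam1 went from 23.4 ± 0.439 to 139 ± 43.6 FPKM (limma adjusted p = 0.000365) and from 328 ± 40.5 to 1230 ± 228 FPKM (limma adjusted p = 0.000300). Lrg1, a secreted glycoprotein, went from 51.2 ± 9.86 to 419 ± 102 FPKM (log2 fold change 2.99, limma adjusted p = 0.000204), the largest increase of the list. Tmem252, listed under an older symbol, went from 115 ± 20.0 to 448 ± 83.2 FPKM, and the interleukin-1 receptor Il1r1 from 15.6 ± 2.52 to 42.2 ± 14.3 FPKM (limma adjusted p = 0.000379 and 0.00726, n = 3 each). These adhesion and interleukin receptor genes are also known to respond to inflammatory signals. The abundant venous genes Emcn (endomucin) and Vwf (von Willebrand factor) did not pass. Emcn was 3002 ± 66.3 FPKM at P5 and 5523 ± 357 at P30 (1.84-fold, limma adjusted p = 0.00106), and Vwf was 980 ± 216 and 1300 ± 323 FPKM (limma adjusted p = 0.214, n = 3 each).

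The venous gene that fell was Aplnr, the receptor for apelin, known in sprouting vessels as well as veins. It was 1140, 1318 and 1505 FPKM at P5 and 82.3, 83.9 and 85.1 at P30, with isolations of P30 nearly alike. Its log2 fold change was −3.95 (SE 0.12, limma adjusted p = 2.64e-05), the largest change in size of the venous list and opposite in sign to the other 5 called venous genes.

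**Figure D5:**
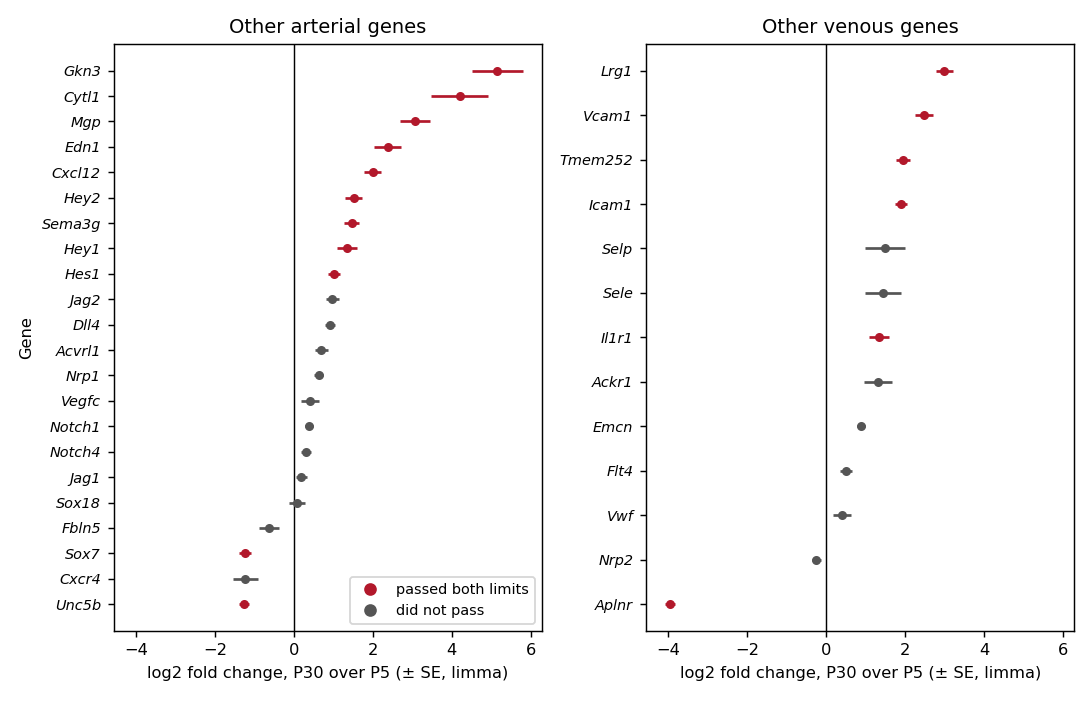
Log2 fold change from P5 to P30 with its SE from limma (bars) for the 22 other arterial genes and 13 of the 14 other venous genes tested, with genes that passed the limits in colour. In both lists most of the called genes lie to the right of 0 (9 of 11 arterial and 5 of 6 venous), with Unc5b, Sox7 and Aplnr to the left. Of all genes called in the same fit, 50.3% were higher at P30.

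For the 2 called genes, the genes of most similar pattern over the 6 isolations were read from Pearson's r of log2(FPKM + 1). For Bmx these were Trp53i13 (r = 0.998), Dguok (r = 0.997) and Relb (r = 0.995), and for Sox17 they were Nedd9 (r = 0.9997), Fgfr3 (r = 0.9995) and Pltp (r = 0.9993). Over these 6 isolations 329 genes had r above 0.95 with Bmx and 815 with Sox17. The correlations share their libraries and are a description of these 6 isolations.

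The identity of the sorted cells was read from marker lists. The summed FPKM of 10 pan-endothelial genes was 18088 to 20370 at P5 and 22504 to 28025 at P30, and 0 of the 10 passed the limits by limma (5 higher and 1 lower at an adjusted p under 0.05). At the looser limit 16.1% of all genes tested were higher at P30 and 22.4% lower. Cdh5, which encodes VE-Cadherin, was 2971 ± 95.5 and 1885 ± 52.4 FPKM (n = 3 each), and Plvap, a marker of fenestrated capillaries, went from 4692 to 11590 FPKM. All 3 genes of a capillary list (Plvap, Rgcc and Car4) were called higher at P30, though Car4 averaged only 0.3 FPKM at P5. Their median log2 fold change was 1.74, beside 0.81 for the other arterial and 1.33 for the other venous genes. Lists of other cell types were higher at P30: 8 RPE genes summed to 91.3 to 178 FPKM at P5 and 554 to 3939 at P30 (6 of 7 tested rose, with Rpe65 listed at 0 in P5 isolations 2 and 3), 7 photoreceptor genes to 2.21 to 8.49 and 36.2 to 353 (2 of 5 rose), 7 smooth muscle genes to 541 to 566 and 615 to 1259 (2 of 5 rose), and 7 fibroblast genes to 742 to 1212 and 1815 to 4557 (1 of 7 rose). The 6 pigment cell genes summed to 102 to 468 and 132 to 1270 FPKM with none passing the limits, and 5 lymphatic genes to 16.4 to 56.7 and 48.8 to 69.1 FPKM with none of 4 passing. The 7 haematopoietic genes summed to 541 to 802 and 318 to 809 FPKM, with 2 lower at P30. By the limits used for these counts, 5.89% of all genes tested were higher at P30 and 5.82% lower. Counts of 1 or 2 are too small to set a list apart from that background. Most of the smooth muscle sum at P5 was Smtn, at 448 ± 34.1 FPKM and 421 ± 44.5 at P30, and Actg2 was not higher at P30 either (4.56 and 3.31). Acta2 went from 59.4 ± 15.5 to 251 ± 174 FPKM, Tagln from 35.3 ± 8.96 to 147 ± 108 and Myh11 from 6.80 ± 4.58 to 69.8 ± 57.7 (n = 3 each). Smooth muscle and fibroblasts are known to express Gja1 too, and the part of these cells in the values above was not tested. Over all genes tested, 735 were higher and 726 lower at P30, a share of 50.3% higher. That share was 37.1% with equal FPKM sums and 27.8% with scaling to endothelial genes, which shifted the median log2 fold change of all genes to −0.27 and −0.40, and Sox17 stayed called under both.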

How the data were processed

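RNA of VE-Cadherin+ choroid ECs (P5 and P30, 3 isolations each, 7 animals pooled per isolation) was sequenced by the authors from TruSeq libraries. The authors used TopHat for alignment (mm9) and CuffLinks for the deposited FPKM values, with GC and upper quartile normalization; CASAVA 1.8.2 is named in the submitters' processing notes, and other versions are not given in the sources used here. Upper quartile scaling assumes that the well expressed genes are stable between ages. The 10 genes and all gene lists were chosen with earlier results of these data known.

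Of 22026 symbols, the 12481 whose mean FPKM reached 5 at P5 or P30 were tested on log2(FPKM + 1) with limma 3.58.1 (R 4.3.3; lmFit, eBayes with trend, age as the only term), two-sided, with Benjamini-Hochberg adjustment over all of them. Fold changes on this scale understate those of low genes. A call needed an adjusted p under 0.01 and at least a 2-fold difference in mean FPKM + 1. The 5 ratios were tested by exact permutation (numpy 2.4.6), adjusted over the 5. Isolations are separate pools of animals. All 10 genes were named; of other lists, up to 6 genes with the largest called changes and the 3 of highest mean FPKM, paralogues, and the 3 genes most correlated with each called gene. Gene positions are from GENCODE on mm9 and promoters from RefSeq (GRCm38.p6), placed on mm9 by exact match. Some genes of these lists are counted but not reported here by name. The limma script was tested on simulated data. Alternatives covered the pseudocount, minimum FPKM, variance trend, scaling, replicate block and each isolation left out.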

Additional observations from a re-analysis of the deposited data

How the results depend on the processing

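Sox17 was called under all 18 alternatives (log2 fold change 1.15 to 1.54), of which the looser adjusted p limit could not lose a call. The call of Bmx was lost under 7 of them (1.56 to 2.19). The number of the 10 genes called higher at P30 was thus 1 without a minimum FPKM and without the variance trend, and 1 to 2 with an isolation left out. Nr2f1 passed only at an adjusted p under 0.05 with no fold limit. Signs turned for genes near 0: Gja5 was −0.11 with equal FPKM sums, −0.24 with endothelial scaling and −0.28 to 0.41 with an isolation left out, Aplp2 was −0.042 with quantile normalization and −0.0086 with endothelial scaling, and the log2 ratio of Efnb2 to Ephb4 differed by −0.17 to 0.16 with an isolation left out. At an adjusted p under 0.05, 2011 genes were higher and 2794 lower at P30, with 14 arterial, 10 venous and 2 Eph and ephrin genes higher. Endothelial scaling gave 1343 genes lower and 0 Eph and ephrin genes higher. With an isolation left out, 396 to 849 genes were higher and 291 to 754 lower, 5 to 9 arterial genes were higher, and 0 to 2 Eph and ephrin genes were lower. The last count was 1 with a pseudocount of 5, without a minimum FPKM and with quantile normalization, and 0 with the replicate block. Same-numbered isolations did not deviate together (correlations −0.06, −0.09 and −0.03), so the number was not treated as a pairing; with it as a replicate block, 585 genes were higher and 524 lower, and Sox17 (limma adjusted p = 0.00113) and Bmx (0.00183) were called. Of 180 values for single genes, 166 kept their direction and side of the limits. Settings that changed only the minimum FPKM, the variance trend, the replicate block or the limits could not turn a direction. Of 45 values for ratios, 42 kept their sign, which the replicate block could not change. With 3 isolations an age, an exact test cannot go below 0.1, and the depth behind each value is unknown.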
